A study of Mus musculus with 4 samples.

Results

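The 10 genes described here, which carry the contact-dependent and secreted inhibitory functions of myeloid-derived suppressor cells, were chosen by name: the checkpoint ligand genes *Cd274*, *Pdcd1lg2*, *Lgals9*, *Vsir* and *Cd47*, the inhibitory receptor genes *Sirpa* and *Havcr2*, the suppressive cytokine genes *Tgfb1* and *Il10*, and the ectonucleotidase gene *Entpd1*. Of these 10 genes, 9 have a value among the 28585 genes listed, and *Il10* was not analysed here. Their RNA was measured by bulk sequencing in the polymorphonuclear subset of these cells, the PMN-MDSCs, taken from pup spleen on postnatal day 7, with 300000 cells per library. Both groups carry floxed alleles of *Dhps*, which encodes deoxyhypusine synthase, on a C57BL/6J background. The 2 DhpsΔLysm libraries (genotype label Dhps cko) come from Dhps fl/fl Lysm cre pups, in which Cre recombinase is expressed from the *Lysm* locus in myeloid cells and is therefore not limited to neutrophils. The 2 Dhps fl/fl libraries (genotype label Dhps flox) come from floxed littermates. The cells were sorted as CD11b+ Ly6Clo/- Ly6G+, a gate that may also take up other neutrophils, and pups of both sexes were used. How many pups contributed to a library is not given, so p-values measure only the spread between these libraries.

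PMN-MDSCs are neutrophil-like cells that restrain T cells and are abundant after birth. Besides depleting arginine and releasing prostaglandins, they can display ligands of inhibitory receptors on T cells, release cytokines and convert extracellular ATP toward adenosine. PD-L1 (*Cd274*) and PD-L2 (*Pdcd1lg2*) bind PD-1, galectin-9 (*Lgals9*) binds TIM-3 (*Havcr2*), VISTA (*Vsir*) acts both as a ligand and as a receptor, and CD47 signals "do not eat me" through SIRPα (*Sirpa*) on phagocytes. The comparison asks whether the RNA of these genes differed between PMN-MDSCs of the 2 genotypes. Deoxyhypusine synthase starts the hypusination of eIF5A with spermidine as substrate.

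The targeted gene *Dhps* was at 2.38 and 2.59 FPKM (fragments per kilobase of transcript, scaled to sequencing depth) in the DhpsΔLysm libraries, compared with 3.57 and 3.11 FPKM in the Dhps fl/fl libraries, each pair given here and below as replicate 1, then replicate 2. It was thus lower in both DhpsΔLysm libraries but present in all, with a log2 fold change of -0.41 (standard error 0.13, adjusted p = 0.63 from limma over all genes tested). The sources do not say which exons are floxed, so gene-level FPKM is a limited check of the deletion, and 5.51% of the exon bases of *Dhps* are shared with *Wdr83*. The neutrophil genes *Itgam* (562.98 to 595.31 FPKM) and *Ly6g*, which encode surface proteins of the gate, were high in all 4 libraries. *Ly6g* was at 222.16 and 241.58 FPKM in DhpsΔLysm and 194.95 and 184.8 FPKM in the controls, without overlap (log2 fold change 0.29, unadjusted p = 0.0080, adjusted p = 0.53 from limma). Markers of several other cell types were also present at higher sums in DhpsΔLysm, whereas those of platelets (89.1% of the Dhps fl/fl level) and erythroid cells (106.0%) overlapped between genotypes. The summed FPKM of 10 monocyte-macrophage markers was 310.73 to 324.56 in DhpsΔLysm and 273.13 to 280.68 in Dhps fl/fl, that of 8 dendritic cell markers 5.78 to 6.25 and 3.65 to 4.74, and that of 8 B cell markers 67.47 to 70.41 and 43.17 to 52.35. Most of the monocyte-macrophage sum came from 1 gene, *Ly6c2*, named after its values were seen. It was at 192.22 and 183.75 FPKM in DhpsΔLysm and 157.95 and 160.82 FPKM in Dhps fl/fl. Y-linked transcripts (*Uty*, *Kdm5d*, *Eif2s3y* and *Ddx3y*) summed to 7.07 and 8.07 FPKM in DhpsΔLysm and to 17.64 and 15.62 FPKM in Dhps fl/fl, and *Xist*, which is transcribed from the inactive X chromosome of females, was at 27.54 and 20.27 FPKM against 16.25 and 17.17 FPKM. The libraries thus differed in Y-linked and *Xist* RNA by genotype, and the part of this in the results below was not tested. In a bulk sample, fewer cells of a type and less RNA per cell cannot be told apart.

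*Vsir* was the most abundant of the 9 genes and *Pdcd1lg2* the least, and their mean FPKM over the 4 libraries differed 472-fold. In order of mean FPKM, *Vsir* (189 FPKM) was followed by *Sirpa* (131 FPKM), *Lgals9* (58.8 FPKM), *Cd47* (57.2 FPKM), *Tgfb1* (24.3 FPKM), *Entpd1* (19.9 FPKM), *Cd274* (3.54 FPKM), *Havcr2* (1.87 FPKM) and *Pdcd1lg2* (0.40 FPKM). FPKM are scaled by length, so these levels can be set beside each other. *Lgals9* and *Cd47* were the 1 neighbouring pair whose ranges over the 4 libraries overlapped, and the ranges of the other 7 neighbouring pairs lay apart. *Vsir* exceeded 99.1% of the 17948 genes tested and *Sirpa* 98.6%, whereas *Havcr2* lay near the middle, above 50.3%, and *Pdcd1lg2* above 25.3%. PMN-MDSCs therefore held far more RNA for VISTA, SIRPα, galectin-9 and CD47 than for the PD-1 ligands, in both genotypes alike.

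**Figure D1:**
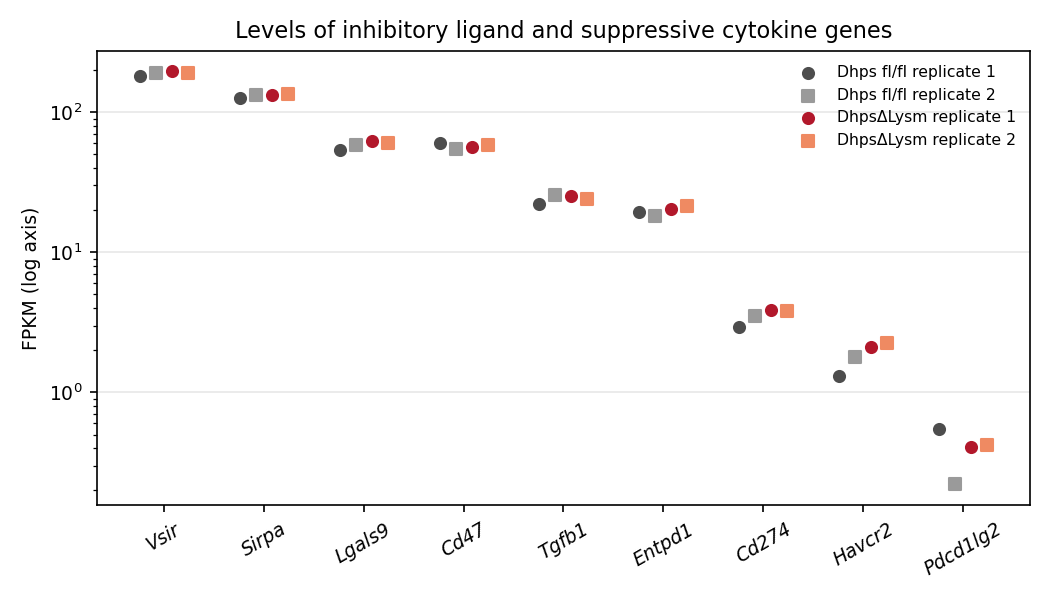
FPKM of the 9 genes (vertical log axis) in each of the 4 libraries, 2 per genotype, ordered by mean level; each point is 1 library. The genes differ far more than the genotypes, and range from 181.07 to 195.69 FPKM for *Vsir* down to 0.22 to 0.55 FPKM for *Pdcd1lg2*.

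No member passed an adjusted p of 0.05 between genotypes by limma on log2(FPKM + 0.1), and 0 of the 9 had an unadjusted p under 0.05 in either direction. Over all 17948 genes tested, 0.00557% passed the adjusted threshold, which is 1 gene, and 4.72% were higher and 2.28% lower in DhpsΔLysm at the unadjusted one. An exact permutation test on 2 libraries against 2 cannot give a two-sided p below 0.33, so limma, which shares the spread over genes, was used. The log2 fold change was above 0 for 8 of the 9 genes, with a median of 0.13, beside a median of 0.01 and 52.2% above 0 over all genes tested. That median of the 9 genes was 0.079 without Dhps fl/fl replicate 1 and 0.055 with a pseudocount of 1, and 6 of the 9 were above 0 after quantile normalization. *Cd274*, *Lgals9*, *Sirpa*, *Havcr2* and *Entpd1* had both DhpsΔLysm libraries above both controls, which is 5 of 9 genes, and 0 of 9 had both below. Of all genes tested, 36.0% did not overlap between genotypes, 20.0% with DhpsΔLysm higher and 16.0% with DhpsΔLysm lower. *Cd274*, *Havcr2* and *Entpd1* were separated in this way under all 4 scalings tried, while *Lgals9* overlapped with libraries scaled to an equal FPKM sum and *Sirpa* overlapped under each of the 3 other scalings and *Vsir* was separated, also higher, with median-ratio scaling. With equal sums, 16.2% of all genes were higher in both DhpsΔLysm libraries and 20.1% lower. In all 9 genes the 2 Dhps fl/fl libraries lay farther apart on the log2 scale than the 2 DhpsΔLysm libraries, as they did in 55.9% of all genes tested, and 6 of the 9 were lowest in Dhps fl/fl replicate 1, as were 28.1% of all genes tested. Without Dhps fl/fl replicate 2, 3 genes had an unadjusted p under 0.05 (*Cd274*, *Lgals9* and *Havcr2*, each with an adjusted p of 0.54 from limma), as did 1609 of all 17994 genes tested in that setting, compared with 1257 of 17948 with all libraries.

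**Figure D2:**
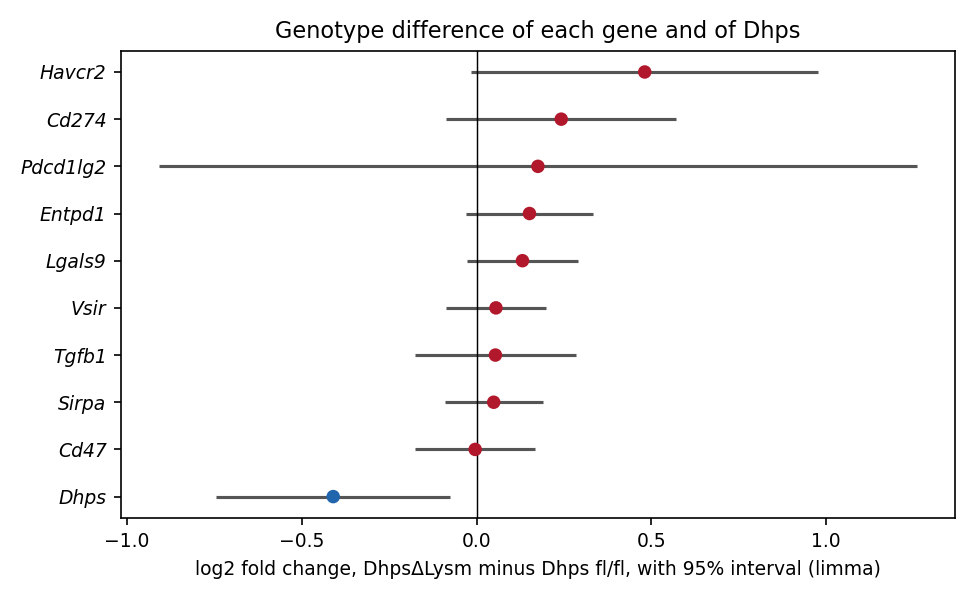
Log2 fold change of each gene and of *Dhps*, DhpsΔLysm minus Dhps fl/fl (horizontal axis), with 95% intervals from limma (lines). The intervals of all 9 genes include 0, and that of *Dhps* runs from -0.75 to -0.07.

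The PD-1 ligand genes lie side by side on chromosome 19 (GRCm38), *Cd274* (ENSMUSG00000016496) from 29367455 to 29388095 and *Pdcd1lg2* (ENSMUSG00000016498) from 29410919 to 29471161, with 22823 bases between them. The 250 bases before the start of each gene (RefSeq, GRCm38.p6; chr19:29367188-29367437, plus strand, and chr19:29410669-29410918, plus strand) are shown because the pair sits on 1 strand of 1 region but differs in level and in sequence at the start.
Cd274: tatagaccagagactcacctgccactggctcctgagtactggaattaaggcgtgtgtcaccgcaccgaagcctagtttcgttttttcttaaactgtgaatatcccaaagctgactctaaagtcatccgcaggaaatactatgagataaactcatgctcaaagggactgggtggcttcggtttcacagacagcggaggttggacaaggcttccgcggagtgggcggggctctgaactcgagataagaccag
Pdcd1lg2: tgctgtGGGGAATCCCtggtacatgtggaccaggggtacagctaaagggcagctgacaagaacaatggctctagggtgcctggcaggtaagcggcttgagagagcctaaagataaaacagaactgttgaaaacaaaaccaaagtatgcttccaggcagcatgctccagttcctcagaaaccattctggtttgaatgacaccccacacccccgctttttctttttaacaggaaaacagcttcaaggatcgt
The windows were searched on both strands for the core of the interferon-stimulated response element (ISRE), the AP-1 element TGANTCA and the NF-κB consensus, and capitals mark a match, of which none overlapped another. The *Pdcd1lg2* window holds an NF-κB match, GGGGAATCCC, from 244 to 235 bases before the start, as do 3.9% of 32851 promoter windows of that length with at least 1 match, and the *Cd274* window holds none of the 3. The windows also differ in CG dinucleotides, with 11 in *Cd274* and 3 in *Pdcd1lg2*.

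*Cd274* was at 3.87 and 3.80 FPKM in DhpsΔLysm, compared with 2.95 and 3.53 FPKM in Dhps fl/fl. Both DhpsΔLysm libraries were above both Dhps fl/fl libraries, by 0.27 FPKM at the closest. DhpsΔLysm averaged 3.83 ± 0.049 FPKM (SD, n = 2) against a Dhps fl/fl mean of 3.24 ± 0.41 FPKM (SD, n = 2), and the log2 fold change was 0.24 (95% interval -0.09 to 0.57, adjusted p = 0.77 from limma). The gap between the genotypes was thus about as large as that between the Dhps fl/fl libraries, and it was 0.12 on the log2 scale without Dhps fl/fl replicate 1 and 0.37 without replicate 2. Of the exon bases of *Cd274*, 14.1% overlap an antisense transcript, AC119228.1, and the sources do not state that reads were counted by strand. *Pdcd1lg2* was at 0.41 and 0.42 FPKM in DhpsΔLysm, compared with 0.55 and 0.22 FPKM in Dhps fl/fl, so the Dhps fl/fl libraries lay on either side of the DhpsΔLysm libraries. These levels stand for about 23, 23, 29 and 11 fragments at the approximate depths, and the 95% interval of the log2 fold change (0.18) ran from -0.91 to 1.26. The 2 Dhps fl/fl libraries alone differed by more than the genotype means. In each library *Cd274* exceeded *Pdcd1lg2*, by 9.44 and 9.05 times in DhpsΔLysm and by 5.36 and 16.0 times in Dhps fl/fl.

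The partner genes of the PD-1 ligands showed no common direction, with 3 log2 fold changes above 0 and 2 below, and 2 of the 5 were lower in both DhpsΔLysm libraries, beside 16.0% of all genes tested. *Cmtm6*, whose product keeps PD-L1 at the cell surface, was at 85.43 and 96.77 FPKM in DhpsΔLysm, compared with 91.63 and 89.10 FPKM in Dhps fl/fl, with overlapping genotypes and a log2 fold change of 0.01 (adjusted p = 0.99 from limma) that ran from -0.081 to 0.099 over the alternatives. Of 8 genes of this list, 5 were tested and 0 had an unadjusted p under 0.05, beside 4.72% of all genes higher and 2.28% lower. With 5 genes, this count cannot tell the list apart from all genes. *Pdcd1*, *Ctla4* and *Cd28*, the receptor genes of T cells, were too low to test at up to 0.13 FPKM.

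Galectin-9 and TIM-3 form a ligand and receptor pair. Both genes were higher in both DhpsΔLysm libraries, as were 20.0% of all genes tested. *Lgals9* overlapped between genotypes with libraries scaled to an equal FPKM sum. *Lgals9* (ENSMUSG00000001123; chromosome 11 of GRCm38, 78962974 to 78984946) and *Havcr2* (ENSMUSG00000020399; chromosome 11, 46454935 to 46481255) lie far apart on 1 chromosome. Their start windows (RefSeq, GRCm38.p6; chr11:78984925-78985174, minus strand, and chr11:46454681-46454930, plus strand) are printed because they hold 2 of the 3 matches found in the 10 windows of 8 members that RefSeq gave.
Lgals9: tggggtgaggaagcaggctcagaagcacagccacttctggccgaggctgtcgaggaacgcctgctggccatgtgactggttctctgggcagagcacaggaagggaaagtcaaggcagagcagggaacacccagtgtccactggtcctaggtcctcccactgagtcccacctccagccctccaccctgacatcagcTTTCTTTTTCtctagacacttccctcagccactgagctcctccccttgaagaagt
Havcr2: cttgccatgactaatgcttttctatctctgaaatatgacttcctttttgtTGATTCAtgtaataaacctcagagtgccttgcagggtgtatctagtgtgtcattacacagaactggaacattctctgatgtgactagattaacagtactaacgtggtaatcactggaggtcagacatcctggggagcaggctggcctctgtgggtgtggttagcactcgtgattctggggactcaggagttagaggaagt
In *Lgals9* the capitals mark the ISRE core on the reverse strand, TTTCTTTTTC, from 55 to 46 bases before the start, an element that 2.98% of all windows hold. In *Havcr2* they mark an AP-1 element, TGATTCA, from 200 to 194 bases before the start, which 6.75% of all windows hold.

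*Lgals9* was at 62.47 and 60.39 FPKM in DhpsΔLysm, compared with 54.10 and 58.13 FPKM in Dhps fl/fl. The genotypes did not overlap, and the closest libraries were 2.26 FPKM apart. DhpsΔLysm averaged 61.4 ± 1.5 FPKM (SD, n = 2) against a Dhps fl/fl mean of 56.1 ± 2.85 FPKM (SD, n = 2), a log2 fold change of 0.13 (95% interval -0.03 to 0.29, adjusted p = 0.77 from limma) that was 0.079 without Dhps fl/fl replicate 1. *Havcr2*, which encodes TIM-3, had the largest log2 fold change of the 9 genes with all 4 libraries. Without Dhps fl/fl replicate 1 the largest was that of *Pdcd1lg2* (0.69). *Havcr2* was at 2.12 and 2.25 FPKM in DhpsΔLysm, compared with 1.31 and 1.80 FPKM in Dhps fl/fl, and the genotypes did not overlap. Its average in DhpsΔLysm stood at 140.5% of the control level, with a log2 fold change of 0.48 (95% interval -0.015 to 0.98, adjusted p = 0.72 from limma), which was 0.27 without Dhps fl/fl replicate 1 and 0.70 without replicate 2. The level of *Havcr2* stands for about 108 to 190 fragments per library. Macrophages and dendritic cells also express *Havcr2*, and the summed markers of dendritic cells stood at 143.4% of their Dhps fl/fl level in DhpsΔLysm, those of splenic macrophages at 121.3% and those of monocytes and macrophages at 114.7%. In these lists 5 of 6, 5 of 9 and 7 of 10 tested genes were higher in both DhpsΔLysm libraries, beside 20.0% of all genes tested, and *Vsig4* was at 0 in 1 library of each genotype, while no other marker of the 3 lists was at 0 in any library. Of the 6 tested dendritic cell markers, 0 were higher at an unadjusted p under 0.05 by limma, beside 4.72% of all genes tested. Summed T cell markers stood at 164.5% of their Dhps fl/fl level in DhpsΔLysm. The part of any of these cells in the level of *Havcr2* was not tested.

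**Figure D3:**
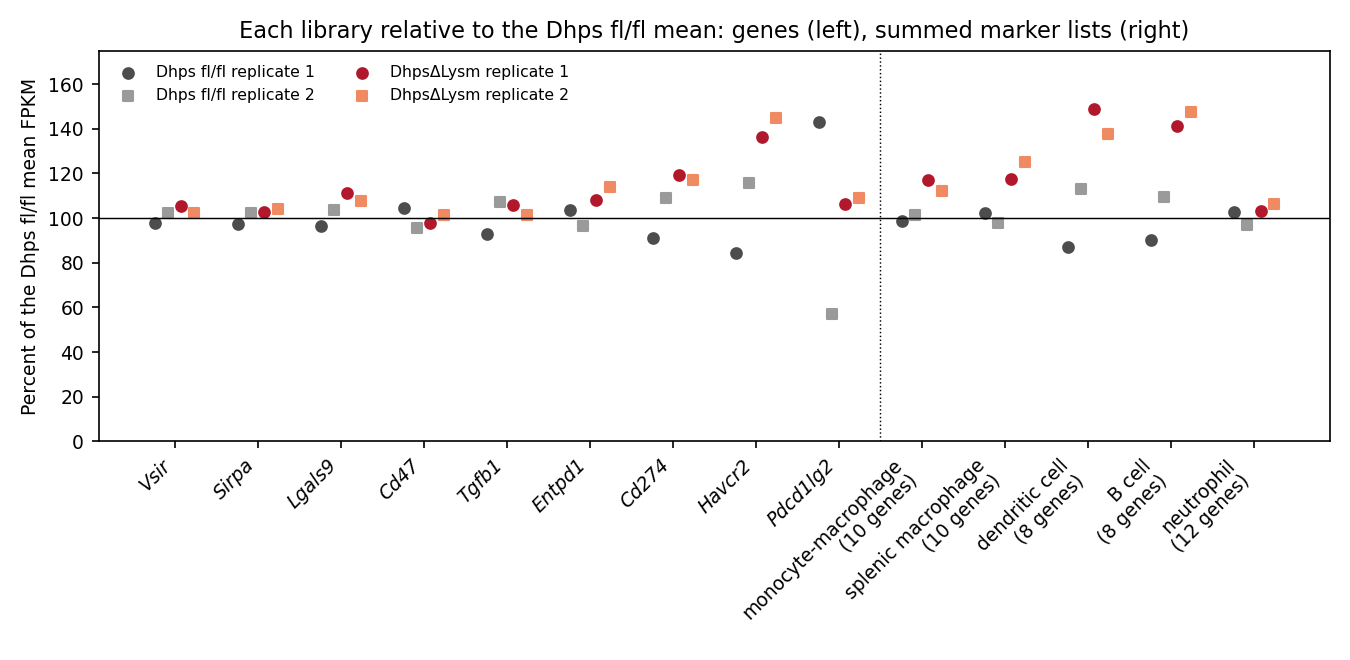
Each library as a percent of the Dhps fl/fl mean FPKM (vertical axis), for the 9 genes (left of the dotted line) and for summed marker lists of other cells and of neutrophils (right); each point is 1 library. *Havcr2* reached 136.3% and 144.7% in DhpsΔLysm, dendritic cell and B cell markers averaged 143.4% and 144.3%, and neutrophil markers 104.8%.

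Interferon receptors and factors that carry interferon signals to *Cd274* and *Lgals9* were examined beside them. Of 9 genes tested, 2 were higher in DhpsΔLysm with an unadjusted p under 0.05, 0 were lower, and 0 passed the adjusted threshold, beside 4.72% of all genes higher and 2.28% lower at the unadjusted threshold. *Irf9*, the DNA-binding subunit of the interferon-stimulated gene factor complex, was at 13.89 and 14.33 FPKM in DhpsΔLysm, compared with 9.43 and 9.96 FPKM in Dhps fl/fl. Both DhpsΔLysm libraries were well above both Dhps fl/fl libraries, with a log2 fold change of 0.54 (standard error 0.07, adjusted p = 0.38 from limma). *Stat2*, which encodes another subunit of that complex, was at 7.83 and 7.91 FPKM against 6.29 and 6.67 FPKM, without overlap, with a log2 fold change of 0.28 (adjusted p = 0.60 from limma). The receptor gene *Ifngr1*, the most abundant of the list, overlapped between genotypes at 36.53 to 38.37 FPKM.

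In the partner lists of galectin-9 and TIM-3 (5 genes tested) and of VISTA (1 tested), 0 genes had an unadjusted p under 0.05. Of all genes tested, 4.72% were higher and 2.28% lower at that threshold. With so few genes, these lists cannot be told apart from all genes by this count. *Cd44*, the most abundant of the galectin-9 and TIM-3 list, ranged from 129.94 to 136.83 FPKM with overlapping genotypes. *Vsir* (ENSMUSG00000020101; chromosome 10 of GRCm38, 60346851 to 60372684), which lies within the gene *Cdh23* on the opposite strand and shares no exon bases with it, was at 195.69 and 189.34 FPKM in DhpsΔLysm, compared with 181.07 and 189.53 FPKM in Dhps fl/fl. DhpsΔLysm replicate 2 and Dhps fl/fl replicate 2 were nearly level, so the genotypes overlapped. The log2 fold change of *Vsir* was 0.06 (95% interval -0.09 to 0.20, adjusted p = 0.87 from limma), and -0.048 after quantile normalization. *Selplg*, which encodes PSGL-1, a binding partner of VISTA, was at 48.45 and 52.25 FPKM in DhpsΔLysm, compared with 41.30 and 46.83 FPKM in Dhps fl/fl, without overlap (log2 fold change 0.19, adjusted p = 0.75 from limma, and 0.10 to 0.28 over the alternatives tried).

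CD47 and SIRPα, the ligand and receptor of 1 axis, were encoded by RNA that varied little, over a range of 8.96% of the mean for *Cd47* and 6.51% for *Sirpa* across the 4 libraries. *Cd47* (ENSMUSG00000055447; chromosome 16 of GRCm38, 49800533 to 49915010) was at 56.08 and 58.16 FPKM in DhpsΔLysm, compared with 59.90 and 54.77 FPKM in Dhps fl/fl. The Dhps fl/fl libraries enclosed the DhpsΔLysm libraries, and the log2 fold change was -0.0042 (95% interval -0.18 to 0.17, adjusted p = 0.997 from limma), with a sign that turned when single libraries were left out. *Sirpa* (ENSMUSG00000037902; chromosome 2 of GRCm38, 129592835 to 129632228), the receptor gene, was at 132.08 and 134.03 FPKM in DhpsΔLysm, compared with 125.51 and 131.82 FPKM in Dhps fl/fl. Its genotypes were separated by only 0.26 FPKM, and the log2 fold change of 0.05 (95% interval -0.09 to 0.19, adjusted p = 0.89 from limma) was -0.017 after quantile normalization. Reads from the domains that *Sirpa* shares with the related *Sirpb1* genes could have been divided among them. The intervals of both genes leave out changes beyond 0.19 on the log2 scale in either direction. *Thbs1*, which encodes thrombospondin 1, a secreted ligand of CD47, was at 767.48 and 781.71 FPKM in DhpsΔLysm, compared with 954.33 and 937.10 FPKM in Dhps fl/fl. It was lower in both DhpsΔLysm libraries, with a log2 fold change of -0.29 (standard error 0.06, unadjusted p = 0.0044, adjusted p = 0.49 from limma), and was the 1 gene of the 8 in this list with an unadjusted p under 0.05, beside 2.28% of all genes lower at that threshold. *Thbs1* exceeded *Cd47* 13.7-fold and 13.4-fold in the DhpsΔLysm libraries and 15.9-fold and 17.1-fold in the Dhps fl/fl libraries.

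**Figure D4:**
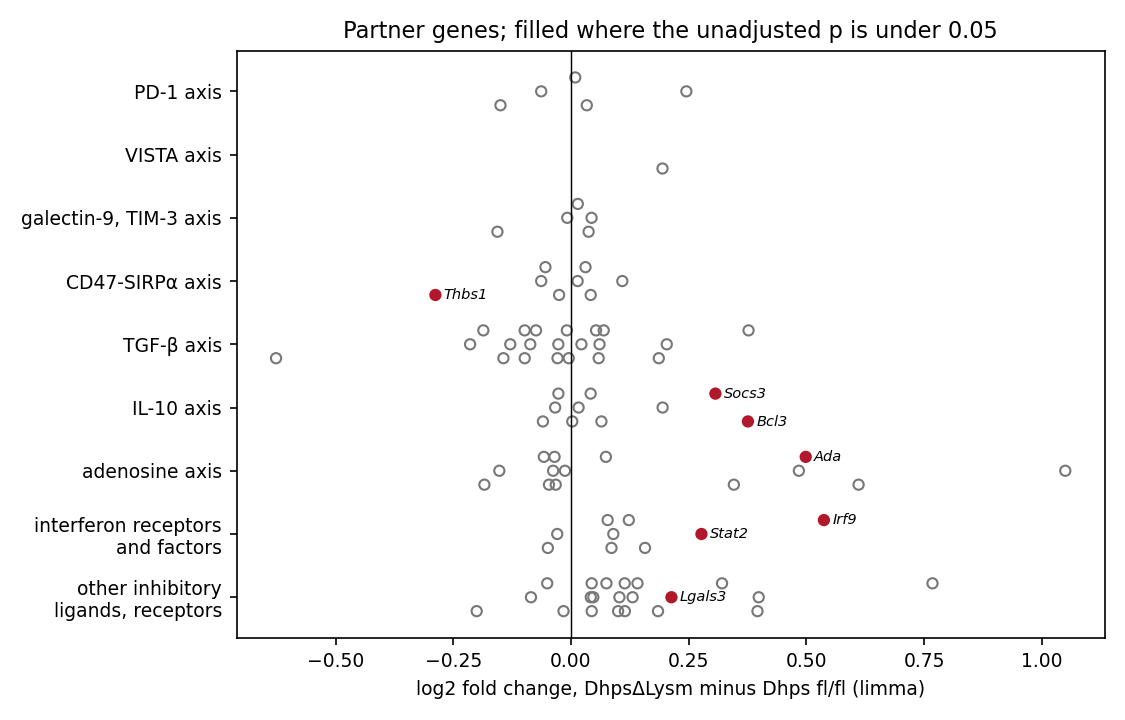
Log2 fold change of each tested partner gene, DhpsΔLysm minus Dhps fl/fl (horizontal axis), by list (rows); each circle is 1 gene, filled and named where its unadjusted p from limma was under 0.05. *Thbs1* lies to the left at -0.29, and *Irf9* lies farthest to the right of the filled circles at 0.54.

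Transforming growth factor β1 is secreted in a latent form that has to be freed from its propeptide. *Tgfb1* (ENSMUSG00000002603; chromosome 7 of GRCm38, 25687002 to 25705077) was at 25.31 and 24.22 FPKM in DhpsΔLysm, compared with 22.17 and 25.66 FPKM in Dhps fl/fl. Dhps fl/fl supplied both the lowest and the highest library. The log2 fold change was 0.05 (95% interval -0.18 to 0.28, adjusted p = 0.94 from limma), turning to -0.051 when Dhps fl/fl replicate 1 was left out. Platelets also carry *Tgfb1*, and the summed level of 6 platelet and megakaryocyte markers, at 3.29 and 2.35 FPKM in DhpsΔLysm, compared with 1.69 and 4.64 FPKM in Dhps fl/fl, was lowest and highest in the same 2 libraries, with *Gp1bb* at 0 in 3 of the 4. The part of platelets in the level of *Tgfb1* was not tested. Of 21 tested genes for the storage, activation and signalling of TGF-β, 0 had an unadjusted p under 0.05 in either direction. At that threshold 4.72% of all genes tested were higher and 2.28% lower. Of these 21 genes, 2 were higher and 6 lower in both DhpsΔLysm libraries, beside 20.0% and 16.0% of all genes tested. *Mmp9*, which encodes a protease that can release TGF-β from its latent form, was the most abundant of them at 867.47 and 940.92 FPKM in DhpsΔLysm against 851.95 and 883.08 FPKM, with overlapping genotypes and a log2 fold change of 0.06 (adjusted p = 0.90 from limma) that ran from 0.00016 to 0.12 over the alternatives. *Nrros*, whose product holds latent TGF-β1 on myeloid cells, was at 18.41 to 20.54 FPKM and *Furin*, the protease gene for its propeptide, at 20.89 to 24.32 FPKM, both with overlapping genotypes. The integrin chain genes *Itgb6* and *Itgb8*, whose products free latent TGF-β, were at 0.03 FPKM or less in every library and were not tested.

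For *Il10* itself no value was analysed, but both receptor genes were present. *Il10ra* and *Il10rb* were at 8.04 to 10.79 and 16.49 to 18.79 FPKM, with overlapping genotypes. Of the 10 tested genes of the IL-10 list, *Socs3* and *Bcl3* were higher in DhpsΔLysm with an unadjusted p under 0.05 and 0 were lower, beside the same 4.72% and 2.28% of all genes. *Socs3*, a feedback inhibitor of cytokine receptors induced through STAT3, was at 6.68 and 6.11 FPKM in DhpsΔLysm, compared with 4.85 and 5.46 FPKM in Dhps fl/fl (log2 fold change 0.31, adjusted p = 0.67 from limma). *Bcl3*, an atypical IκB gene, was at 5.80 and 5.99 FPKM against 4.22 and 4.84 FPKM (log2 fold change 0.38, adjusted p = 0.58 from limma). Over the settings tried, the log2 fold change ran from 0.22 to 0.39 for *Socs3* and from 0.28 to 0.47 for *Bcl3*. Neither gene had an unadjusted p under 0.05 in every setting. *Jak1*, the most abundant gene of the list, overlapped at 49.51 to 52.03 FPKM.

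CD39, the product of *Entpd1*, removes phosphates from extracellular ATP and ADP, and CD73, the product of *Nt5e*, then forms adenosine, which adenosine deaminase (*Ada*) breaks down. *Entpd1* (ENSMUSG00000048120; chromosome 19 of GRCm38, 40612366 to 40741602) was at 20.43 and 21.52 FPKM in DhpsΔLysm, compared with 19.56 and 18.21 FPKM in Dhps fl/fl. The genotypes did not overlap, with 0.87 FPKM between the closest libraries. DhpsΔLysm averaged 20.98 ± 0.77 FPKM (SD, n = 2) against a Dhps fl/fl mean of 18.9 ± 0.95 FPKM (SD, n = 2), a log2 fold change of 0.15 (95% interval -0.03 to 0.33, adjusted p = 0.77 from limma) that stayed between 0.10 and 0.20 when single libraries were left out. *Nt5e* was at 7.48 and 8.58 FPKM in DhpsΔLysm, compared with 8.73 and 7.85 FPKM in Dhps fl/fl, with overlapping genotypes. The level of *Entpd1* was 2.73 and 2.51 times that of *Nt5e* in the DhpsΔLysm libraries and 2.24 and 2.32 times in the Dhps fl/fl libraries, a ratio chosen after its values were seen and not tested. *Ada* was the 1 gene of 14 tested adenosine genes with an unadjusted p under 0.05, beside 4.72% of all genes higher at that threshold. It was at 8.22 and 7.77 FPKM in DhpsΔLysm, compared with 6.09 and 5.20 FPKM in Dhps fl/fl, with a log2 fold change of 0.50 (standard error 0.11, unadjusted p = 0.0059, adjusted p = 0.50 from limma). Summed T cell and B cell markers stood at 164.5% and 144.3% of their Dhps fl/fl levels. The part of such cells in the levels of *Ada* and *Entpd1* was not tested. The adenosine receptor genes *Adora2a* and *Adora2b* were at 0.63 FPKM or less in every library.

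Across all partner lists, 93 of 109 genes were tested, 6 were higher and 1 lower in DhpsΔLysm with an unadjusted p under 0.05, and 0 passed the adjusted threshold by limma. These 7 of 93 genes are a share near that of all genes tested, of which 1257 of 17948 had an unadjusted p under 0.05. The 7 genes are *Irf9*, *Stat2*, *Socs3*, *Bcl3*, *Ada*, *Lgals3* and *Thbs1*. The count was 2 when either DhpsΔLysm library was left out, beside 795 of 17919 genes in all without replicate 1 and 719 of 17980 without replicate 2, and 13 when Dhps fl/fl replicate 2 was left out, beside 1609 of 17994.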

How the data were processed

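Bulk RNA sequencing of 4 libraries was analysed, 2 per genotype, grouped by the labels. The authors filtered reads with Cutadapt, aligned them with HISAT2 to the mouse genome (mm10 per the submitters' processing notes) and deposited FPKM per gene from StringTie and ballgown, rounded to 2 decimals. The annotation version, strand setting and scaling between libraries are not given in the sources used here. FPKM summed to 304281 to 319286 per library. FPKM are relative, so a few very abundant genes lower the values of all others.

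Spacing of low FPKM values of short single-exon genes gave approximate depths of 29400000 to 32400000 fragments. Of these values, 39.0% to 41.3% were whole multiples of the value of 1 fragment to within 0.15, beside 30% by chance, so counts could not be recovered and no count test was run. The depths were chosen for closeness of these same values to such multiples, whereas the 30% holds for a depth fixed beforehand. Fragments per gene are approximate, from the longest transcript.

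Testing used log2(FPKM + 0.1) of genes averaging 0.1 FPKM or more, in limma 3.58.1 under R 4.3.3 (lmFit, then eBayes with trend), with Benjamini-Hochberg adjustment over all 17948 genes and a threshold of 0.05. Fold changes on this scale understate those of low genes. The test and the depth estimate were tested on simulated data. Coordinates are from GENCODE M21 (GRCm38), which holds 28511 of the identifiers and lacks 74, and promoter windows from RefSeq (GRCm38.p6). Python 3.11.15 was used for other steps.

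The members, partner lists and marker lists were chosen with earlier results of these data known, and the Y-linked list, *Xist* and ratios between genes after values were seen. All members were named, with *Dhps*, *Ly6g*, *Itgam* and, in each partner list, the most abundant gene and those with an unadjusted p under 0.05 and a mean of at least 1 FPKM. Some items of the partner lists and promoter search are not reported here and are in no count. Other partners and the markers *Vsig4* and *Gp1bb* were named after values were seen. The pseudocount, the filter, the scaling and the variance model were varied, a replicate block was added, and each library was left out in turn.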

Additional observations from a re-analysis of the deposited data

How the results depend on the processing

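The count of members with an adjusted p under 0.05 was 0 under all 14 alternatives, and *Cd274*, *Lgals9*, *Havcr2* and *Entpd1* kept their direction in all 14. The number of all genes with an adjusted p under 0.05, 1 as reported, was 0 with a pseudocount of 0.01, without a filter, with each gene modelled alone and with a replicate block, 4 with a minimum mean of 1 FPKM, 2 after quantile normalization, and 0 whichever library was left out. Leaving out 1 library gave 0 to 3 members and 2 to 13 partner genes with an unadjusted p under 0.05. The log2 fold change turned to -0.048 for *Vsir* and -0.017 for *Sirpa* after quantile normalization, and with single libraries left out it ran from -0.069 to 0.060 for *Cd47* (0.02 without DhpsΔLysm replicate 1), from -0.051 to 0.16 for *Tgfb1* and from -0.34 to 0.69 for *Pdcd1lg2*. The cause was not tested. *Pdcd1lg2* could not be given a value with a minimum mean of 1 FPKM, since its mean is lower. Where 1 library of a genotype remained, it was assumed to vary like the others. The genotypes are littermates, but no source ties a replicate number to a litter, and deviations of same-numbered libraries had a correlation of -0.06 across 10629 genes. With the replicate block, 0 of 9 members and 8 of 93 partner genes had an unadjusted p under 0.05 by limma, beside 1082 of 17948 genes in all. *Pdcd1lg2* rests on the fewest fragments of the members, about 11 to 29 per library.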

Other observations

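Other inhibitory ligands and receptors of myeloid cells were measured alongside. Of 28 genes of this list 21 were tested, 1 was higher in DhpsΔLysm with an unadjusted p under 0.05 and 0 were lower, and 6 were higher in both DhpsΔLysm libraries without overlap, beside 4.72%, 2.28% and 20.0% of all genes tested. *Lgals3*, which encodes galectin-3, a lectin that binds T cell glycoproteins, was at 113.35 and 110.51 FPKM in DhpsΔLysm, compared with 97.79 and 95.27 FPKM in Dhps fl/fl, with a log2 fold change of 0.21 (standard error 0.05, unadjusted p = 0.0092, adjusted p = 0.54 from limma). The most abundant gene of the list, *Cd24a*, which encodes a ligand of Siglec receptors, overlapped between genotypes at 278.4 to 321.79 FPKM. Named after their values were seen, *Ebi3* was at 101.70 and 97.54 FPKM in DhpsΔLysm, compared with 86.72 and 95.40 FPKM in Dhps fl/fl, and its partner subunit in IL-27, *Il27*, was at 2.94 and 4.13 FPKM against 2.31 and 2.97 FPKM. *Pirb*, whose inhibitory receptor binds MHC class I molecules, was at 137.21 and 137.51 FPKM in DhpsΔLysm, compared with 126.32 and 130.0 FPKM in Dhps fl/fl, with a log2 fold change of 0.10 (adjusted p = 0.77 from limma) that ran from 0.039 to 0.12 over the alternatives. *Ebi3* and *Pirb* did not overlap between genotypes, and *Il27* did.

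The remaining marker lists give the setting of these values. T cell markers summed to 14.93 to 18.19 FPKM in DhpsΔLysm and to 7.88 to 12.25 FPKM in Dhps fl/fl, with 2 of 8 genes higher at an unadjusted p under 0.05 by limma, and eosinophil markers to 7.27 to 9.45 FPKM and 3.49 to 5.53 FPKM, with 2 of 5. At the same threshold 6 of 8 B cell markers, 5 of 9 splenic macrophage markers and 3 of 10 monocyte-macrophage markers were higher and 1 of the last list was lower, beside 4.72% of all genes higher and 2.28% lower, while 0 of 6 dendritic cell markers passed. Erythroid markers overlapped between genotypes, at 735.22 and 881.04 FPKM in DhpsΔLysm and 608.81 and 916.49 FPKM in Dhps fl/fl. *Cd14*, named after its values were seen, went against the other monocyte-macrophage markers, at 12.02 and 12.50 FPKM in DhpsΔLysm and 17.62 and 15.27 FPKM in Dhps fl/fl (adjusted p = 0.51 from limma).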
